A study of Homo sapiens with 6 samples.

Results

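The genes described here encode proteins reported as substrates of the ubiquitin ligase RNF6, together with relatives of TLE3, which is among those substrates. The members are TLE1, TLE2, TLE3, TLE4, LIMK1, SHC1, FOXA1, QSOX1, TRIB3 and MAD1L1. They were chosen by name from reported substrates and their relatives, with earlier results of these data known, and all 10 are listed among the 56638 gene symbols of the count tables. Of these, 9 had enough reads to be tested, and TLE4 had not. For MAD1L1 the reported substrate is uncertain, since the name MAD1 in reports on RNF6 may mean MAD1L1 or MXD1. PTPN6, which encodes SHP-1, the substrate in the title of the study, is not a member and is given only once for comparison.

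The study measured RNA in cells labelled HT29, an established human line from a colorectal adenocarcinoma, after transfection with small interfering RNA (siRNA), which directs the destruction of matching transcripts. The control group had 3 libraries, from cells given a nonspecific siRNA, and the knockdown group had 3, from cells given RNF6 siRNA, all labelled passage 16 to 19 and grown in RPMI-1640 with fetal bovine serum. No other allele or agent is named. The labels do not say that the 3 libraries of a group come from separate cultures, so p-values reflect only how these libraries scatter, and that scatter may be technical. The sources used here do not give the siRNA sequences, their number or the time to harvest, and no second siRNA or re-expression of RNF6 is among the samples.

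RNF6 is a RING finger protein that transfers ubiquitin to other proteins. Ubiquitin chains can send a protein to the proteasome or change its activity, and both act on the protein, not directly on its transcript. RNA counts therefore show the level of a substrate's mRNA and carry no measure of its ubiquitylation or its protein. TLE1 to TLE4 are Groucho-type corepressors: they do not bind DNA themselves and are brought to genes by TCF/LEF, HES, RUNX and other factors, where they repress transcription. In the intestine TLE proteins on TCF keep Wnt target genes silent until beta-catenin takes their place. LIMK1 is a kinase that inactivates the actin-severing protein cofilin, SHC1 an adaptor that links receptor tyrosine kinases to RAS, FOXA1 a pioneer transcription factor of endodermal tissues, QSOX1 an enzyme that forms disulphide bonds, TRIB3 a pseudokinase induced by the stress factor ATF4, and MAD1L1 a component of the spindle assembly checkpoint.

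Levels are given as CPM, read counts scaled to a common total of reads assigned to genes. The libraries held between 6808771 and 11071456 reads in genes, so that the floor of 3 reads corresponded to 0.268 to 0.442 CPM. The first principal component of all tested genes held 66.3% of the variance and separated the 2 groups. Epithelial genes were abundant, with EPCAM at 217 CPM and KRT8 at 3055 CPM in control cells. Several defining intestinal markers were at or near 0: CDX1 and CEACAM6 had no read in any library, and CEACAM5, LGALS4 and VIL1 had at most 5 reads each. CDX2, another intestinal marker, was expressed in every library, at 13.2 to 18.1 CPM in control and 15.1 to 16.6 CPM after RNF6 siRNA. HT29 cells are known to express CEACAM5, LGALS4 and VIL1, so the low counts of those genes go against the label. The identity of the cells was not tested further. Of 10 tested colon epithelial markers 7 were lower and 3 did not pass after RNF6 siRNA. Among all 14685 genes tested 16.1% were lower and 16.6% higher. The 3 that did not pass were EPCAM (217 and 226 CPM), CDH1 (105.5 and 113.3 CPM) and CDX2. Of the 7 lower calls, that of CLDN3 ended under 4 and that of ELF3 under 2 of the 15 other settings described below. The summed level of the colon marker list was 4664 to 6046 CPM in control and 2686 to 3099 CPM in RNF6 siRNA libraries. Most of this sum was keratin: KRT8 went from a mean of 3055 to 1252 CPM and KRT19 from 1317 to 870 CPM. Leukocyte markers summed to at most 3.46 CPM and endothelial markers to at most 3.08 CPM, led by VWF. Fibroblast markers summed to 49.9 to 65.2 CPM in control and 69.9 to 84.6 CPM in RNF6 siRNA libraries, nearly all of it COL1A1, while DCN, LUM, THY1 and FAP were at or under 2 reads in every library. The part of these markers in the changes below was not tested.

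RNF6, the targeted gene, was measured at 54.2, 45.1 and 57.7 CPM in the control libraries and at 16.4, 16.2 and 16.8 CPM in the RNF6 siRNA libraries. All 3 RNF6 siRNA libraries lay below all controls, and they were close to each other. The means were 52.3 ± 6.49 CPM (SD, n = 3) and 16.5 ± 0.316 CPM (SD, n = 3), a 3.17-fold lower level (log2 fold change -1.67, SE 0.13, adjusted p = 2.12e-06 by edgeR's quasi-likelihood test). An antisense gene and a pseudogene on the strand of RNF6 lie over 9.35% of the RNF6 exon length. Without a stated strand setting, reads of the antisense gene cannot be told apart from those of RNF6. For the pseudogene no strand setting would separate them. The log2 fold change of RNF6 lay between -1.77 and -1.60 under the 15 other settings tried.

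Of the 9 tested members, 3 were higher after RNF6 siRNA (LIMK1, TRIB3 and QSOX1), 0 were lower and 6 did not pass the test. Of those 6, 1 (TLE2) was lower at an unadjusted p below 0.05 (0.0216), and 0 members were called lower with DESeq2 or limma-voom. Among all 14685 genes tested 32.7% passed in either direction, 16.6% higher and 16.1% lower, so the members' share of 3 in 9 is near that of all genes. For 6 of the 9 members (LIMK1, TRIB3, QSOX1, SHC1, TLE1 and MAD1L1) no library of 1 group fell within the range of the other group, as was so for 44.2% of all tested genes. The median log2 fold change of the 9 members was -0.16 and that of all genes 0.01. The samples are bulk RNA, so that fewer cells of a type and less RNA per cell cannot be told apart.

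**Figure D1:**
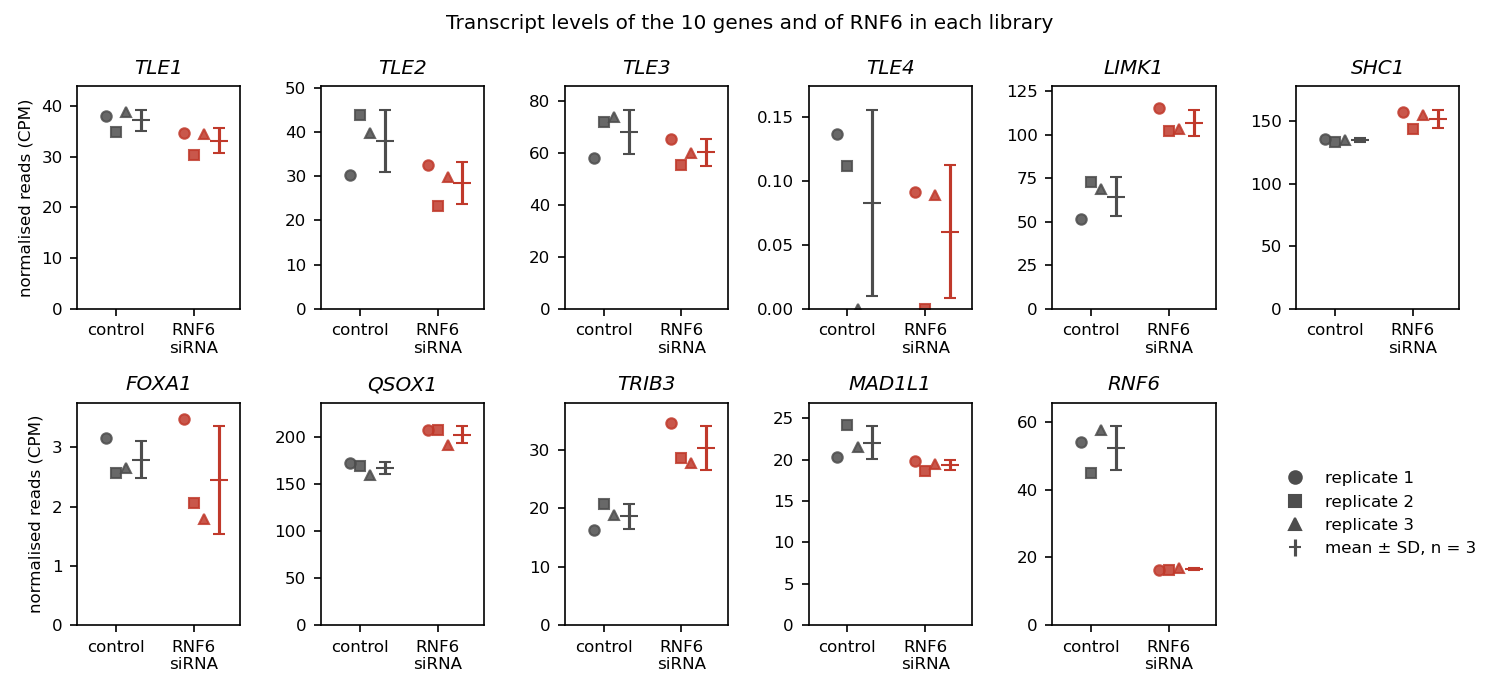
Normalised reads (CPM) of the 10 genes and of RNF6 in each library, with a symbol for each replicate and the mean ± SD of 3 libraries beside them. Each panel has its own scale from 0. LIMK1, TRIB3, QSOX1 and SHC1 lie higher in all RNF6 siRNA libraries, TLE1, MAD1L1 and RNF6 lie lower, and the groups overlap for TLE2, TLE3, TLE4 and FOXA1.

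**Figure D2:**
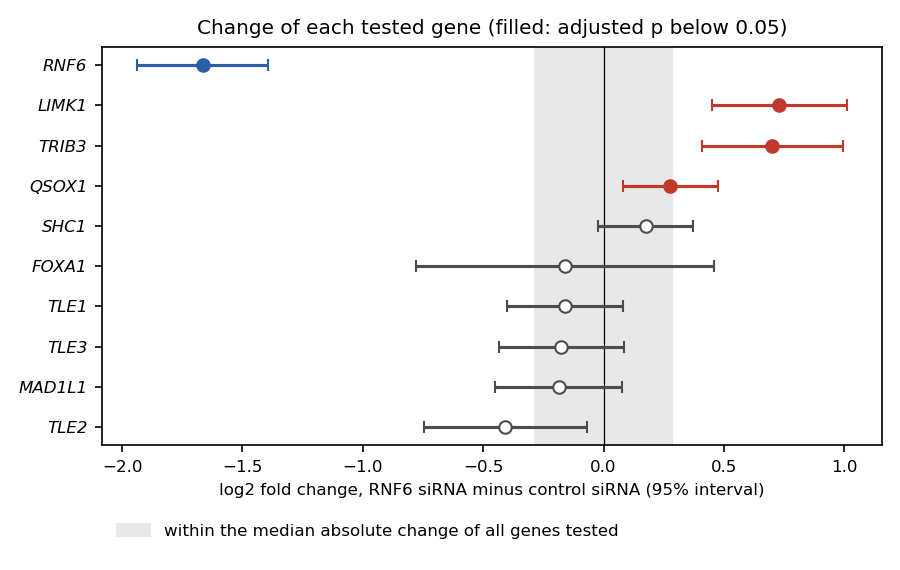
Log2 fold change with its 95% interval for RNF6 and the 9 tested genes. Filled points passed at an adjusted p below 0.05, and the grey band spans the median absolute change of all genes tested (0.28 on either side of 0). LIMK1 and TRIB3 lie above the band with their whole intervals and RNF6 below it, while the other 7 intervals reach into it.

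Since the differences are in transcript level, promoters of the 3 members that rose, LIMK1, TRIB3 and QSOX1, are shown together with that of TLE3. RefSeq windows (GRCh38.p14) from 250 bases before to 50 bases after a start were found for all 10 members, 18 windows in all, and were searched on both strands. The motifs were TTCNNNGAA (STAT), CTTTGAT (TCF), TGATGCAA (ATF4 with CEBP), ACGTG (hypoxia response core) and CACGTG (E-box, which contains ACGTG on both strands and was chosen after matches were seen). The first LIMK1 window (chr7:74083554-74083853, plus strand), the first TRIB3 window (chr20:381045-381344, plus strand), the QSOX1 window (chr1:180154619-180154918, plus strand) and the first TLE3 window (chr15:70097868-70098167, minus strand) read as follows, with matches in capitals.
LIMK1: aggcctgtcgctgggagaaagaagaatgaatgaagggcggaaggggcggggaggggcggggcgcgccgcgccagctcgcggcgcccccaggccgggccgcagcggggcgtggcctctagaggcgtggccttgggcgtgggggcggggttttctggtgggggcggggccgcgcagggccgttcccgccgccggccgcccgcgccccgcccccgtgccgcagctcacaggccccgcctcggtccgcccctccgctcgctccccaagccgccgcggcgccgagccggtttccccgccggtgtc
TRIB3: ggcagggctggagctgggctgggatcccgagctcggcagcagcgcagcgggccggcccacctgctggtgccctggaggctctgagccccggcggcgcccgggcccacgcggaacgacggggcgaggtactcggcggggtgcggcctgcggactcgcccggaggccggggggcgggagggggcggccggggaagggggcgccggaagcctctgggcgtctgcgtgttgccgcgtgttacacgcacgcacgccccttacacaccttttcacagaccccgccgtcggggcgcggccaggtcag
QSOX1: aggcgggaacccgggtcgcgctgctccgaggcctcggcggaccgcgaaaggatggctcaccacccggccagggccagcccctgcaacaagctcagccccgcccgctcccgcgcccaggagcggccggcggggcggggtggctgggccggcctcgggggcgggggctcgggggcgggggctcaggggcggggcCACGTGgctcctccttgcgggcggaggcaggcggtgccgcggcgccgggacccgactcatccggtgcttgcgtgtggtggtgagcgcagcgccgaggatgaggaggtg
TLE3: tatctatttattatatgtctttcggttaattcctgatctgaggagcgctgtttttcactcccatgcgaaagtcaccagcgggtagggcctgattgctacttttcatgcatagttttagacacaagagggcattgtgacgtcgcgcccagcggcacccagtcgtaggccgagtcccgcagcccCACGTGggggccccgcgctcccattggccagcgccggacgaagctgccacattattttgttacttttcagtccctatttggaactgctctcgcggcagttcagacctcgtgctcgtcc

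QSOX1 and TLE3 each carry CACGTG, and the printed LIMK1 and TRIB3 windows hold none of the 5 motifs. Over all 35116 windows of this length 7.26% hold CACGTG and 21.4% hold ACGTG, against 2 and 4 of the 18 member windows. The ACGTG matches are in QSOX1, SHC1, TLE1 and TLE3. The STAT motif is in 7.66% of all windows, the TCF motif in 2.62% and the ATF4 with CEBP motif in 0.866%, and none of these is in a member window. A lack of a match says only that these letters are not in these windows. The printed windows of LIMK1, QSOX1 and TRIB3 have a GC content of 79.7%, 78.7% and 77.0%, and that of TLE3 54.3%, against a median of 58.7% over all windows.

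TLE3 is the family member reported as an RNF6 substrate in colorectal cancer. Its transcript stood at 58.2, 71.9 and 73.9 CPM in the control libraries and at 65.5, 55.2 and 59.9 CPM in the RNF6 siRNA libraries. The groups overlapped, since control replicate 1 lay below 2 of the 3 RNF6 siRNA libraries. The means were 68.0 ± 8.56 and 60.2 ± 5.14 CPM (SD, n = 3 each), and the change did not pass the test (log2 fold change -0.18, 95% interval -0.43 to 0.08, adjusted p = 0.285 by edgeR). TLE3 was called lower under 1 of 15 other settings, in which a trend of the fold changes on exon length and GC content was removed, an alternative chosen after seeing the data (adjusted p = 0.0172, over a range of 0.0172 to 0.595).

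TLE2 had the largest fold change of TLE1, TLE2 and TLE3 and did not pass the test. It was measured at 30.3, 44.1 and 39.9 CPM in the control libraries and at 32.5, 23.3 and 29.9 CPM after RNF6 siRNA. Here too control replicate 1 was the lowest control and lay within the range of the RNF6 siRNA libraries. The means were 38.1 ± 7.05 and 28.6 ± 4.79 CPM (SD, n = 3 each), the log2 fold change was -0.41 (SE 0.16, 95% interval -0.75 to -0.07), and the adjusted p was 0.0616 by edgeR. The adjusted p ranged from 0.00159 to 0.212 over the 15 other settings, and 4 of them called TLE2 lower: no filter on low counts, the length and GC trend removed, leaving out control replicate 1 (adjusted p = 0.00159) and leaving out RNF6 siRNA replicate 1 (adjusted p = 0.0279).

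TLE1 was more even within its groups. The control libraries held 38.0, 34.9 and 38.8 CPM and the RNF6 siRNA libraries 34.7, 30.3 and 34.5 CPM. The groups did not overlap, but the gap between the lowest control and the highest RNF6 siRNA library was small. With means of 37.3 ± 2.05 and 33.2 ± 2.49 CPM (SD, n = 3 each), the change did not pass (log2 fold change -0.16, 95% interval -0.40 to 0.08, adjusted p = 0.292 by edgeR), nor did it under any of the 15 other settings. TLE4 had 1, 1 and 0 reads in the control libraries and 1, 0 and 1 reads after RNF6 siRNA. These counts lie under the floor of 3 reads in every library, so that no difference was detectable at this depth.

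Scaled by exon length, TLE2 had the highest mean of the 4 in control cells, then TLE1 and TLE3. The ranges of TLE1 and TLE2 overlapped, and in control replicate 1 TLE1 (7.745 CPM per kilobase) stood above TLE2 (7.508). Each exon length joins the exons of all annotated transcripts of a gene, not only those expressed here, so the order between genes depends on it. In control cells TLE2 held 41.9 ± 4.11% of the summed TLE1 to TLE4 level per kilobase (SD, n = 3), TLE1 34.2 ± 4.53% and TLE3 24.0 ± 0.792%. After RNF6 siRNA these shares were 37.9 ± 2.26% for TLE2, 36.5 ± 1.54% for TLE1 and 25.7 ± 1.06% for TLE3, and each share overlapped between the groups. TLE4 held 0.0472% and 0.0373%. Without length scaling TLE3, which has the longest joined exons of the 4 (12634 bases against 4038 for TLE2), leads with 47.3% in control and 49.4% after RNF6 siRNA. The ratio of TLE3 to TLE2 per kilobase was 0.613, 0.521 and 0.592 in control and 0.643, 0.759 and 0.639 after RNF6 siRNA, without overlap. The ratio has no test of its own, and the levels of TLE2 and of TLE3 each overlapped between the groups.

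**Figure D3:**
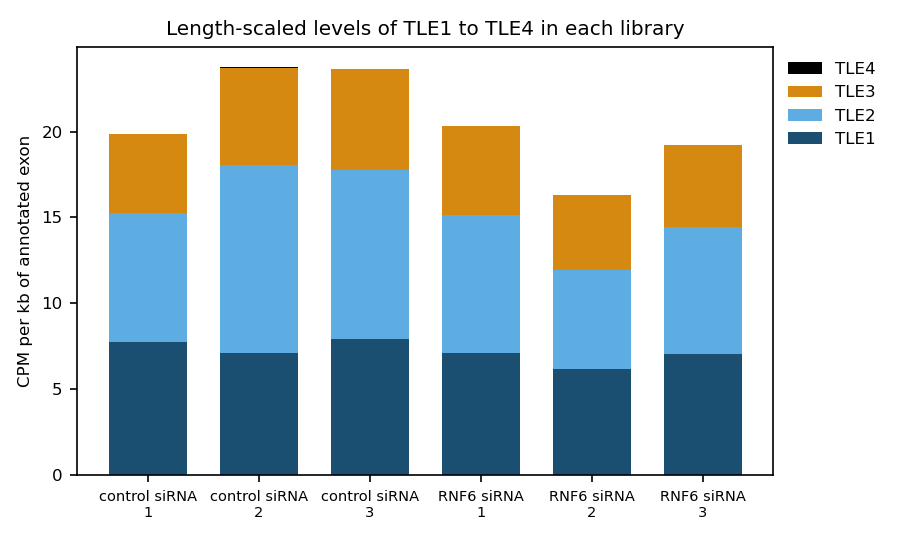
CPM per kilobase of annotated exon for TLE1, TLE2, TLE3 and TLE4, stacked for each of the 6 libraries. The summed heights are 19.9, 23.7 and 23.6 in control and 20.3, 16.3 and 19.2 after RNF6 siRNA, so the groups overlap through control replicate 1, and TLE4 is too low to be seen.

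The 2 shorter relatives of the family rose. AES, which lacks the WD40 repeats of the full-length proteins and is known to interfere with their repression, was measured at 35.4, 44.1 and 34.4 CPM in control and at 86.5, 62.5 and 73.4 CPM after RNF6 siRNA. The groups were well apart, and the 1.96-fold higher level passed the test (log2 fold change 0.97, SE 0.14, adjusted p = 2.33e-04 by edgeR) and every one of the 15 other settings. Per kilobase, AES stood at 7.16 in control and 14.0 after RNF6 siRNA, so that it was near TLE1 (7.59) in control and about level with TLE1 and TLE2 together (6.77 and 7.08) after RNF6 siRNA. TLE6, a divergent relative, rose from 5.25 ± 0.341 to 7.70 ± 0.403 CPM (SD, n = 3 each; adjusted p = 0.0200 by edgeR), a call that ended under 6 of the 15 other settings (highest adjusted p = 0.0758), among them the fits with control replicate 2 or 3 or RNF6 siRNA replicate 1 or 3 dropped (0.0521 to 0.0708).

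Among 15 tested transcription factors that bring TLE proteins to DNA, 5 were higher, 2 lower and 8 did not pass, with a median log2 fold change of 0.09 against 0.01 for all genes. Over all genes tested 16.6% were higher and 16.1% lower, the shares to set beside this count and those of the lists below. All 3 tested TCF genes were among the 5 that were higher. TCF7L2, the main TCF of the intestine, rose from 131 ± 11.6 to 215 ± 7.61 CPM (SD, n = 3 each; 1.64-fold, adjusted p = 1.72e-04 by edgeR). TCF7L1, which acts mostly as a repressor, rose 2.02-fold, from 16.2 to 32.7 CPM, and PRDM1, a transcriptional repressor, rose 2.04-fold from 3.16 to 6.50 CPM. TCF7 and RUNX2 also rose and HEYL and RUNX1 fell, and these 4 are named after their values were seen. The RUNX2 call, at an adjusted p of 0.0481, ended under 10 of the 15 other settings, and it was 0.132 to 0.189 when replicate 2 or 3 of either group was dropped. The TCF7 call was lost when replicate 3 of either group was dropped (0.0679 and 0.0991), and that of RUNX1 also when RNF6 siRNA replicate 1 was (0.0530 to 0.0702). LEF1, the remaining member of the TCF/LEF family, had at most 2 reads in any library.

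Target genes of TCF and beta-catenin did not move in a common direction. Of 15 tested genes 3 rose, 4 fell and 8 did not pass, with a median log2 fold change of -0.10. DKK1, a secreted Wnt antagonist, fell from 453 ± 8.15 to 201 ± 14.2 CPM (SD, n = 3 each; 2.26-fold, adjusted p = 3.12e-06 by edgeR). CCND1, which encodes cyclin D1, fell 1.82-fold from 1056 to 582 CPM, and MYC, which encodes a growth-promoting transcription factor, fell 1.85-fold from 221 to 119 CPM. The other called genes, named after their values were seen, were RNF43, NOTUM and TCF7, which rose, and ZNRF3, which fell. The NOTUM call was lost with the replicate number added to the model as a block (adjusted p = 0.0515 by edgeR). The ZNRF3 call was lost when control replicate 3 or RNF6 siRNA replicate 1 or 3 was dropped (adjusted p = 0.05002 to 0.0767), and that of TCF7 when replicate 3 of either group was (up to 0.0991). AXIN2, a widely used readout of the pathway and also named after its values were seen, was at 29.2 ± 0.796 and 34.6 ± 1.58 CPM (SD, n = 3 each) and did not pass (adjusted p = 0.0978).

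LIMK1, reported as an RNF6 substrate in the growth cones of neurons, had the smallest adjusted p of the members. It was measured at 51.6, 73.1 and 68.6 CPM in the control libraries and at 116, 102 and 103 CPM in the RNF6 siRNA libraries. Every RNF6 siRNA library lay above every control, and control replicate 1 was the lowest of the 6. The means were 64.4 ± 11.4 and 107 ± 7.41 CPM (SD, n = 3 each), a 1.66-fold higher level (95% interval 1.37 to 2.01, log2 fold change 0.73, SE 0.13, adjusted p = 0.00104 by edgeR). The adjusted p ranged from 1.49e-07 to 0.0148 over the 15 other settings, and all of them called LIMK1 higher.

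LIMK2, the other LIM kinase, also rose. It went from 31.4 ± 3.58 to 44.7 ± 2.97 CPM (SD, n = 3 each; 1.42-fold, adjusted p = 0.00583 by edgeR). Per kilobase, LIMK1 stood at 1.67, 2.05 and 1.77 times LIMK2 in the control libraries and at 2.17, 2.19 and 2.06 times LIMK2 after RNF6 siRNA. These ratios do not overlap between the groups, and the smallest gap, between 2.05 and 2.06, is narrow.

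Of 18 tested genes of the LIM kinase and cofilin pathway, 4 rose, 2 fell and 12 did not pass (median log2 fold change 0.09). CFL1, which encodes the main LIM kinase substrate cofilin, fell from 515 ± 84.3 to 188 ± 22.1 CPM (SD, n = 3 each; 2.74-fold, adjusted p = 6.12e-06 by edgeR). CDC42, a small GTPase upstream of the PAK kinases that activate LIM kinases, fell 4.61-fold from 250 ± 5.57 to 54.3 ± 4.57 CPM (adjusted p = 6.37e-08). RAC1, another such GTPase, rose 1.88-fold from 78.9 to 148 CPM. These 3 genes have near-identical pseudogene copies that can take or lend reads, so that their levels are uncertain. PAK2, a kinase that activates LIM kinases, and SSH1, a phosphatase that restores cofilin activity, rose 1.47-fold and 1.41-fold, and both are named after their values were seen. The second cofilin gene CFL2 was at 99.8 and 111 CPM and did not pass (adjusted p = 0.264).

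TRIB3, a Tribbles pseudokinase that binds AKT and the ligase COP1, was the other member with a change of this size. It was measured at 16.3, 20.6 and 18.8 CPM in the control libraries and at 34.6, 28.6 and 27.7 CPM after RNF6 siRNA. The lowest RNF6 siRNA library lay well above the highest control. The means were 18.6 ± 2.17 and 30.3 ± 3.73 CPM (SD, n = 3 each), a 1.63-fold higher level (95% interval 1.33 to 1.99, log2 fold change 0.70, SE 0.14, adjusted p = 0.00189 by edgeR). All 15 other settings called TRIB3 higher, with an adjusted p between 1.88e-05 and 0.0217.

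Of its relatives, TRIB1 fell from 313 ± 18.1 to 245 ± 6.62 CPM (SD, n = 3 each; 1.28-fold, adjusted p = 0.0100 by edgeR), a call lost when RNF6 siRNA replicate 3 was dropped (adjusted p = 0.0545). TRIB2 was at 28.9 and 31.9 CPM and did not pass (adjusted p = 0.401). ATF4, whose protein induces TRIB3, was at 301 ± 27.7 and 316 ± 18.1 CPM (adjusted p = 0.634), though ATF4 is known to be controlled mainly at translation. The partner gene DDIT3 was at 11.2 and 14.4 CPM (adjusted p = 0.0963), and it was called higher when RNF6 siRNA replicate 3 was dropped (0.0440).

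Of 19 tested Tribbles relatives and ATF4 response genes 5 rose, 3 fell and 11 did not pass, with a median log2 fold change of 0.05. CTH, an enzyme of cysteine synthesis, rose from 14.4 ± 1.92 to 24.0 ± 0.177 CPM (SD, n = 3 each; 1.67-fold, adjusted p = 0.00107 by edgeR). DDIT4, an inhibitor of mTOR complex signalling, rose 2.44-fold from 43.3 ± 18.3 to 105 ± 13.1 CPM (SD, n = 3 each; adjusted p = 7.22e-04), but its control libraries spread widely and the call ended without control replicate 2 (adjusted p = 0.0520, the highest over the 15 other settings). SLC3A2, a subunit of amino acid transporters, fell 1.62-fold from 237 to 146 CPM (adjusted p = 6.06e-04). Named after their values were seen, PHGDH, SESN2 and SLC7A11 also rose and CEBPB also fell, while ASNS, a standard ATF4 target, was at 120 ± 6.38 and 118 ± 8.16 CPM (SD, n = 3 each; adjusted p = 0.877). The CEBPB call was lost when replicate 2 or 3 of either group was dropped (adjusted p = 0.0524 to 0.0863), and that of SLC7A11 when control replicate 3 or RNF6 siRNA replicate 2 or 3 was (0.0932 to 0.115).

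QSOX1, a secreted and Golgi enzyme that introduces disulphide bonds, was the third member called higher, by a smaller amount. The control libraries held 172, 169 and 160.2 CPM and the RNF6 siRNA libraries 208, 208 and 192 CPM. All RNF6 siRNA libraries lay above all controls, with little spread in either group. The means were 167 ± 6.30 and 203 ± 8.95 CPM (SD, n = 3 each), a 1.21-fold higher level (95% interval 1.06 to 1.39, log2 fold change 0.28, SE 0.09, adjusted p = 0.0330 by edgeR). This call ended under 7 of the 15 other settings, among them when no filter on low counts was used, when control replicate 2 or 3 was left out, and when any RNF6 siRNA library was left out (adjusted p from 0.0205 to 0.185 over the 15 other settings). With 1 of those 5 libraries dropped the adjusted p was 0.0590 to 0.185. Its log2 change is close to the median absolute change of all genes tested, 0.28.

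The paralog QSOX2 was at 79.2 ± 4.89 and 76.0 ± 1.10 CPM (SD, n = 3 each) and did not pass (adjusted p = 0.673 by edgeR). Per kilobase, QSOX1 was 1.13, 0.975 and 0.988 times QSOX2 in control and 1.35, 1.33 and 1.22 times QSOX2 after RNF6 siRNA, without overlap. Of 13 tested genes of disulphide formation 5 rose, 2 fell and 6 did not pass, with a median log2 fold change of 0.14. PRDX4, a peroxiredoxin of the endoplasmic reticulum that oxidises disulphide isomerases, rose from 51.2 ± 3.39 to 131 ± 12.9 CPM (SD, n = 3 each; 2.56-fold, adjusted p = 3.60e-06). TXNDC12, a thioredoxin-like protein of the same compartment, rose 1.74-fold from 60.3 to 105 CPM, and TXNDC11 fell 1.96-fold from 34.5 to 17.6 CPM. The oxidase gene ERO1L and the isomerase genes P4HB and PDIA3 rose and the second oxidase gene ERO1LB fell, named after their values were seen. The PDIA3 call was lost when control replicate 3 or RNF6 siRNA replicate 1 or 2 was dropped (adjusted p = 0.0809 to 0.212), and that of ERO1LB when control replicate 3 or RNF6 siRNA replicate 1 or 3 was (0.0876 to 0.185).

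SHC1, the adaptor gene, was high and even. It was measured at 136, 133 and 135 CPM in the control libraries and at 157, 144 and 155 CPM after RNF6 siRNA. The groups did not overlap, yet the change did not pass (means 135 ± 1.54 and 152 ± 7.09 CPM, SD, n = 3 each; log2 fold change 0.17, 95% interval -0.02 to 0.37, adjusted p = 0.161 by edgeR). It was called higher under 1 of the 15 other settings, with the length and GC trend removed (adjusted p = 0.0290, over a range of 0.0290 to 0.446). Exons of PYGO2 and of an antisense gene cover 15.2% of the SHC1 exon length, so that part of its reads may have been counted elsewhere or set aside.

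The other SHC genes were low, at 4.84 and 5.03 CPM for SHC2, 0.717 and 1.32 CPM for SHC3 and 1.11 and 1.05 CPM for SHC4, and none passed. Of 17 tested SHC genes, receptors and partners 3 rose, 2 fell and 12 did not pass (median log2 fold change -0.03). PTPN11, the phosphatase SHP-2, rose from 171 ± 31.0 to 353 ± 27.0 CPM (SD, n = 3 each; 2.07-fold, adjusted p = 5.57e-05 by edgeR), with pseudogene copies that make its level uncertain. EGFR, a receptor that binds SHC1 when active, fell 2.09-fold from 215 to 103 CPM (adjusted p = 8.94e-05), and NRAS, a RAS gene, rose 1.53-fold from 102 to 155 CPM (adjusted p = 0.00216). Named after their values were seen, INSR rose and HRAS fell, the latter not when replicate 2 or 3 of either group was dropped (adjusted p = 0.0745 to 0.106), while the SHC1 partner GRB2 was at 178 and 174 CPM and did not pass. PTPN6, the SHP-1 gene, fell from 45.2 ± 6.66 to 34.6 ± 3.11 CPM (SD, n = 3 each; 1.30-fold, adjusted p = 0.0376 by edgeR), a call likewise lost when replicate 2 or 3 of either group was dropped (0.0739 to 0.167).

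FOXA1 was the least expressed of the tested members. It had 23, 23 and 25 reads in the control libraries and 38, 14 and 20 reads after RNF6 siRNA, or 3.16, 2.57 and 2.66 CPM against 3.48, 2.06 and 1.79 CPM. RNF6 siRNA replicate 1 was the highest of the 6 and replicate 3 the lowest, so the groups overlapped fully. The log2 fold change was -0.16 with a 95% interval of -0.78 to 0.46 (adjusted p = 0.707 by edgeR), which is 0.583 to 1.38 times the control level. FOXA3 was at 6.21 and 5.25 CPM (adjusted p = 0.393), and FOXA2 had 0, 4 and 0 reads in control and 13, 6 and 4 reads after RNF6 siRNA and was not tested. Of the 7 tested FOXA relatives and endodermal factors 0 passed edgeR's test, and 0 passed with DESeq2 or limma-voom, while 1 (GATA6, named after its values were seen) had an unadjusted p below 0.05 (0.0286). GATA6 was called lower when control replicate 1 was dropped (adjusted p = 0.0449), and with no filter on low counts 1 gene of the list, FOXA2, was called higher.

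MAD1L1, which encodes the checkpoint protein that brings MAD2 to unattached kinetochores, was measured at 20.3, 24.2 and 21.6 CPM in the control libraries and at 19.9, 18.7 and 19.5 CPM after RNF6 siRNA. The groups did not overlap, but the lowest control and the highest RNF6 siRNA library nearly met. The means were 22.0 ± 1.99 and 19.4 ± 0.612 CPM (SD, n = 3 each), and the change did not pass (log2 fold change -0.19, 95% interval -0.45 to 0.08, adjusted p = 0.265 by edgeR) under this or any of the 15 other settings. MAD2L1, its partner, was at 122 and 118 CPM (adjusted p = 0.753).

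Of 14 tested spindle checkpoint genes 5 rose, 1 fell and 8 did not pass, with a median log2 fold change of 0.04. ZW10, which brings dynein and MAD1 to kinetochores, rose from 16.2 ± 0.386 to 46.5 ± 2.95 CPM (SD, n = 3 each; 2.87-fold, adjusted p = 2.12e-06 by edgeR). AURKB, the kinase that corrects faulty attachments, rose 1.88-fold from 58.8 to 111 CPM, and TRIP13, an ATPase that remodels MAD2, fell 1.70-fold from 57.2 to 33.5 CPM. KNTC1, a partner of ZW10, CASC5 and TTK also rose and are named after their values were seen. The TTK call was lost when control replicate 3 or RNF6 siRNA replicate 2 or 3 was dropped (adjusted p = 0.0609 to 0.0756).

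The reported substrate MAD1 may instead be MXD1, a MAX partner that opposes MYC and is also named MAD1. The family of MXD1 is therefore given beside MAD1L1. MXD1 was at 28.3, 20.4 and 24.6 CPM in control and at 28.97, 36.5 and 31.1 CPM after RNF6 siRNA. The groups lay next to each other without overlap, and the rise (1.32-fold, adjusted p = 0.0472 by edgeR) ended under 8 of the 15 other settings, with an adjusted p of up to 0.170, among them those with replicate 2 or 3 of either group dropped (0.113 to 0.170). MNT rose 1.70-fold from 14.2 to 24.1 CPM and MXD3 1.55-fold from 23.7 to 37.0 CPM, while MXD4 fell 1.66-fold from 57.3 to 34.5 CPM. In all, 3 of the 6 tested genes rose, 2 fell and 1 did not pass; the second that fell was MAX, the shared partner, named after its values were seen and not called when control replicate 3 was dropped (adjusted p = 0.0579).

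**Figure D4:**
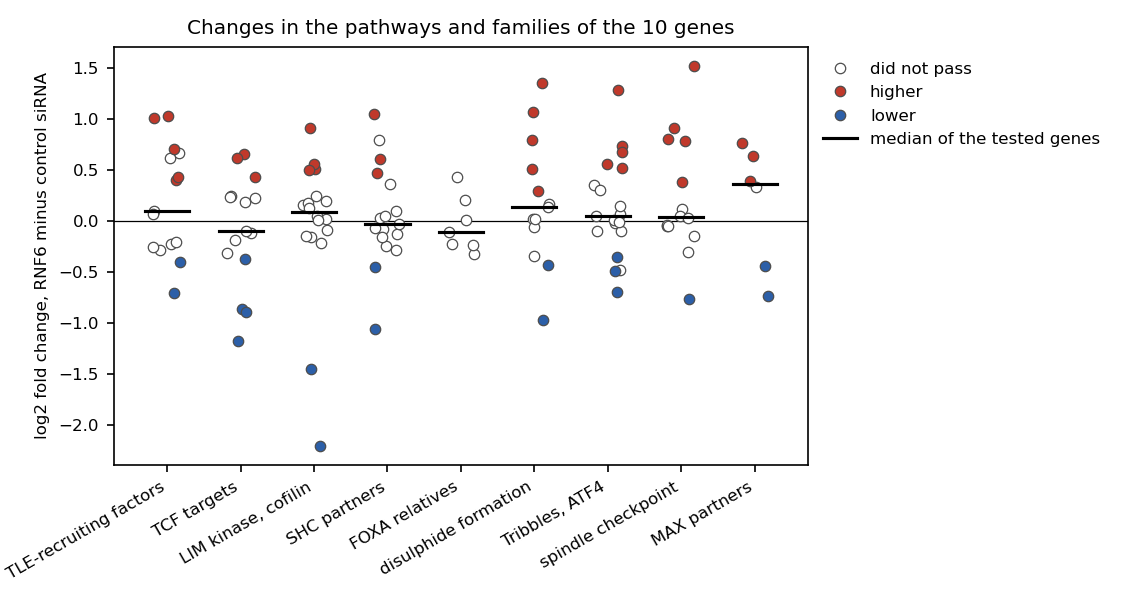
Log2 fold change (RNF6 siRNA minus control siRNA) of the tested genes in 9 lists of pathway or family genes, a point per gene, filled where the adjusted p was below 0.05, with a bar at the median. Every list except the FOXA relatives holds called genes in both directions, and the medians of the other lists lie between -0.10 and 0.36.

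Compared per kilobase of exon, the members spanned a wide range of levels in control cells. SHC1 stood highest at 31.0 CPM per kilobase, then QSOX1 (17.95), TLE2 (9.43), LIMK1 (9.33), TLE1 (7.59), TRIB3 (5.42), TLE3 (5.38), MAD1L1 (3.05), FOXA1 (0.702) and TLE4 (0.0101). The median of all tested genes with a known length was 6.07. Neighbours that overlapped in this order were TLE2 with LIMK1, LIMK1 with TLE1, and TRIB3 with TLE3, and TLE2 also overlapped TLE1. After RNF6 siRNA LIMK1 (15.5) and TRIB3 (8.82) stood above TLE2 (7.08), and the order of the remaining members was the same as in control.

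For 3 members the tested genes with the most similar pattern were sought among 11730 candidates averaging 5 CPM or more, by the root mean square difference of log2 CPM over the 6 libraries after centring each gene. LIMK1 was closest to APEH (difference 0.0399), MXD3 (0.0502) and SLC22A18 (0.0513), against a median of 0.443 over the genes compared. Among the genes closest to TRIB3 were CALR (0.0466) and CDK9 (0.0555), against a median of 0.415. TLE3 was closest to MCAM (0.0123), C2CD2L (0.0199) and ARHGAP27 (0.0276), against a median of 0.244. MCAM stood at 103, 129 and 131 CPM in control and at 117, 99.9 and 107 CPM after RNF6 siRNA. With 6 libraries and this many genes, close matches are a description only.

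**Figure D5:**
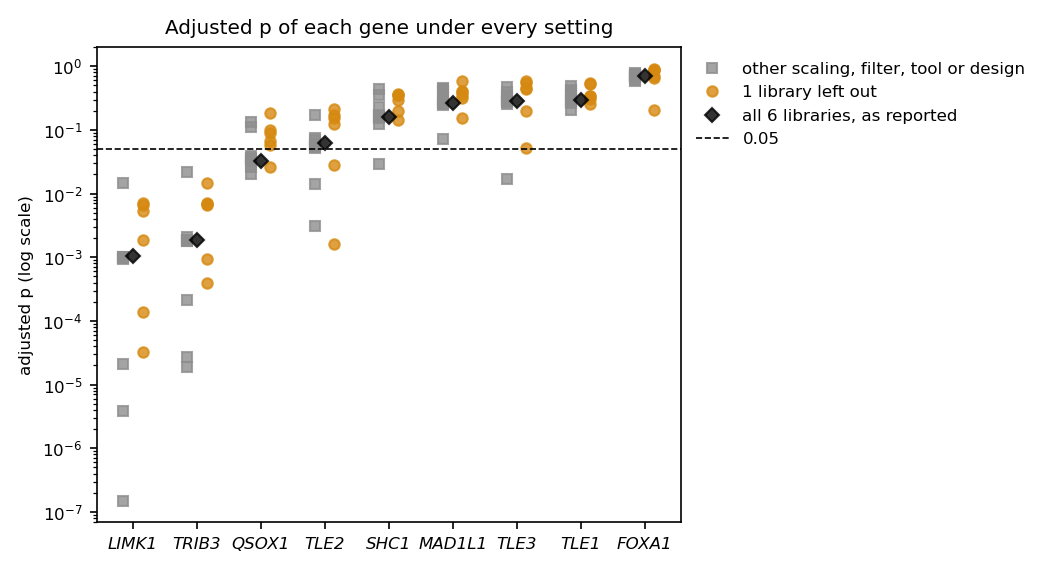
Adjusted p (log scale) of the 9 tested members with all 6 libraries, under other scalings, filters, tools and designs, and with 1 library left out at a time, with a dashed line at 0.05. LIMK1 and TRIB3 stay below the line under every setting, QSOX1 lies on both sides, TLE2 falls below it under 4 settings and TLE3 and SHC1 under 1 each, and TLE1, MAD1L1 and FOXA1 stay above it.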

How the data were processed

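The authors deposited, for each library, raw whole-number counts of reads by gene symbol. They aligned reads to hg19 (GRCh37) with TopHat2 2.0.11 and counted them with HTSeq, per the submitters' processing notes. The HTSeq version, strand setting and annotation were not given in the sources used here. Rows without a gene held 27.3% to 29.4% of the listed reads and were left out. Counts were analysed in R 4.3.3 with edgeR 4.0.16: genes kept by filterByExpr (minimum count 10, minimum total 15), TMM scaling, a robust quasi-likelihood model on the group, two-sided, with Benjamini-Hochberg adjustment over all genes tested. All adjusted p-values come from this test unless stated. Fold changes use a prior count of 0.125, and each SE is the log2 fold change over the root of F. In 3 simulated data sets with 200 of 14685 genes changed, it recovered 87.0% of 2-fold and 45.5% of 1.5-fold changes, with 4.14% false calls. Far fewer genes were changed there than the 32.7% called in the data, so these rates need not hold for the data. No 2 libraries were copies of each other: at least 24195 genes had different counts between any pair. Exon lengths came from GENCODE 29 (GRCh38, another build) and matched 88.2% of tested genes. They join the exons of all annotated transcripts of a gene and can exceed the length of the transcripts expressed here. Levels per kilobase, and ranks, shares and ratios between genes that use them, are therefore approximate.

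All members and their closest relatives are always named, with up to 3 called genes of smallest adjusted p per list. Some genes that this rule selects are not reported here. The members and lists were chosen with earlier results of these data known.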

Additional observations from a re-analysis of the deposited data

How the results depend on the processing

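There were 15 alternatives: other scalings, filters and tools (DESeq2 1.42.0 and limma-voom 3.58.1 among them), the replicate number as a block, a removed trend on exon length and GC content, and each library left out. The removed trend was chosen after seeing the data. No change of sign of a called value was seen among the members. LIMK1 and TRIB3 were called under all 15. With the replicate block, genes called higher numbered 1421 and genes called lower 1321, against 2442 and 2365. With 1 library left out they numbered 1514 to 2910 and 1478 to 2967. The fewest calls with a library left out came without RNF6 siRNA replicate 3 (3007 called in either direction), and the total without control replicate 3 was 3109. With the trend removed the total was 6636. Members called lower numbered 1 without a filter, 2 with the trend removed and 0 to 1 with 1 library left out, and TLE2 was the member in each, joined by TLE3 when the trend was removed. Members called higher numbered 2 under the block, without a filter, and without control replicate 2 or 3 or any RNF6 siRNA replicate, where QSOX1 was lost, and 4 with the trend removed. No shared pattern by replicate number was seen. Deviations of libraries with the same number correlated at -0.45, -0.24 and 0.05, and 0 of the 3 control libraries correlated best with its own number. Deviations within a group of 3 depend on each other, so these values cannot show whether the libraries were handled in pairs. The block moved the total to 2742 calls from 4807 and, among the members, ended only the call of QSOX1. Among the other named genes, the calls that the block ended include those of TLE6, TCF7, RUNX1, RUNX2, ZNRF3, NOTUM, TRIB1, SLC7A11 and CEBPB. They also include those of HRAS, ERO1LB, PDIA3, TTK, MXD1, MAX, CLDN3 and ELF3. Depth limits FOXA1 and TLE4 most.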
